A study of Homo sapiens with 12 samples.

Results

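Untreated cells of the mantle cell lymphoma line Rec-1 were compared with untreated cells of the line Mino across all measured genes. The comparison used 4 of the 12 Affymetrix arrays of the series, chosen by their labels as the mock arrays of the 2 lines, and it covered 19775 genes. Rec-1 mock cells (2 arrays) had been kept for 24 h with 0.1% DMSO in RPMI medium with 10% fetal bovine serum. Mino mock cells (2 arrays) had been kept for 24 h with 0.1% DMSO in RPMI medium with 15% fetal bovine serum. The serum level went with the line, so a difference between the lines and an effect of serum cannot be told apart. The other 8 arrays (SP-49 mock cells, and all 3 lines with 1 micromolar compound E, a gamma-secretase inhibitor) entered only the estimate of the spread. Each line is a single established culture from 1 patient's tumour, so the values describe these 2 lines and not 2 classes of lymphoma.

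Mantle cell lymphoma is a cancer of mature B cells in which a translocation usually places the cyclin D1 gene under an immunoglobulin enhancer. B cells carry an antigen receptor with an immunoglobulin heavy chain and either a kappa or a lambda light chain, and they show peptides to T cells on MHC class II molecules. Notch receptors are cut by gamma-secretase after they bind a ligand, and the freed part joins the DNA-binding protein RBPJ to switch on target genes such as those of the HES and HEY repressors. Genes of class II are switched on by the co-activator CIITA, which is held on their promoters by the RFX complex and by NF-Y, a factor that binds the Y box. Short stretches before the start sites are printed here for some called target genes of both systems that held the letters marked below. They are RefSeq reference sequences of build GRCh38.p14, not sequences of these cells, and each covers the 250 bases before the annotated start, read 5′ to 3′ on the gene's strand.

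Among the Notch target genes, capitals mark the letters GTGGGAA of the RBPJ motif or, on the other strand, TTCCCAC.
HES1, chr3:194135898-194136147, plus strand: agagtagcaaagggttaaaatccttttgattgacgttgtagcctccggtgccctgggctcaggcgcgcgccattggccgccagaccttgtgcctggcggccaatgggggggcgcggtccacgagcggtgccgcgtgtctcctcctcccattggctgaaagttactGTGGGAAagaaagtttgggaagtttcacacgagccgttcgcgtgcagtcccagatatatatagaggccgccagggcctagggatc
HES4, chr1:1000098-1000347, minus strand: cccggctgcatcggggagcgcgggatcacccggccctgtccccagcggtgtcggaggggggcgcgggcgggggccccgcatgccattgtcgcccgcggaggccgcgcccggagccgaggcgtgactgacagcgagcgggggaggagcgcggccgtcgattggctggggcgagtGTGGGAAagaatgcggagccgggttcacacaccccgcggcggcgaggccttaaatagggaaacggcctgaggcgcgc
HEY2, chr6:125749382-125749631, plus strand: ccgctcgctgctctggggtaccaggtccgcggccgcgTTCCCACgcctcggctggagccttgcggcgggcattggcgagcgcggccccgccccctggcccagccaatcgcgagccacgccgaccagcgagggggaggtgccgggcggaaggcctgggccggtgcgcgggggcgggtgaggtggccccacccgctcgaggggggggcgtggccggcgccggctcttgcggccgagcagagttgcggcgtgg

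Of the 14 Notch target genes measured, 10 had a promoter in the RefSeq table, and 5 of these held the motif in this window (HES1, HES4, HEY2, HES5 and HEYL), with HES5 holding it at 2 places. HES1, HES4 and HEY2 were higher in Rec-1 past the threshold, and the other 2 had values that did not pass it. Among targets without the letters in this window, NRARP was higher and IL2RA and CDKN1A were lower past the threshold. The same letters occurred in 5.46% of the first listed promoters of all 27305 genes in the table. A match is a description of the sequence and not a binding site.

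Among the MHC class II genes, capitals mark the letters TGATTGG of the Y box or, on the other strand, CCAATCA.
HLA-DRB1, chr6:32589849-32590098, minus strand: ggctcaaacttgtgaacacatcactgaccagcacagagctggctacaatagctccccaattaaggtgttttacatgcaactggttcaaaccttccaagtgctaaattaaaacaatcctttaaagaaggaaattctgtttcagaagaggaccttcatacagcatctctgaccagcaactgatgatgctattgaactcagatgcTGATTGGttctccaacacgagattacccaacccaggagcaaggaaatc
HLA-DQB1, chr6:32666658-32666907, minus strand: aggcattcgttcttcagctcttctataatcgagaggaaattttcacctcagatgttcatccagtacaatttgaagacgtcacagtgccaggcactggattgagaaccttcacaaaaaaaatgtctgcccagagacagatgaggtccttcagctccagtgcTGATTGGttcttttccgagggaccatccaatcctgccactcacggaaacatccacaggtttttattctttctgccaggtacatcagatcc
HLA-DMA, chr6:32953098-32953347, minus strand: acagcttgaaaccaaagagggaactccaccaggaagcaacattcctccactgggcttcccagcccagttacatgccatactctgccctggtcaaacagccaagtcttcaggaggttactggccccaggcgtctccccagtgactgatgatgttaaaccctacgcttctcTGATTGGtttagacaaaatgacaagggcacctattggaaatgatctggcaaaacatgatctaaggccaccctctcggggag

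Of the 16 class II genes measured, 13 had a promoter in the table, and 6 of these held the Y-box letters. Of these, 5 were lower in Rec-1 and 1 (RFX5) was not past the threshold. Among the 5, HLA-DOB lost its call without Rec-1 replicate 2 or either Mino replicate. Its difference was -0.45 and not called when its probe sets were averaged. HLA-DOA was called on 1 of 5 probe sets. The letters occurred in 6.90% of the promoters of all genes, and other called class II genes such as HLA-DPA1 and CD74 lacked them in this window. HLA-DRA is named only.

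Values were on a log2 scale, so a difference of 1 is 2-fold. Differences are Rec-1 minus Mino, and a gene was called when the adjusted p of limma, with Benjamini-Hochberg adjustment over all genes, was under 0.05. The labels do not say whether the 2 arrays of a line came from separate cultures, so the p-values reflect the spread among these samples alone, and that spread may be technical. With 2 arrays per line the precision is limited by their number, and a difference had a median standard error of 0.164. Values near the arrays' median of 1.99 are dominated by background, so folds against such a level are understated. Across all probe sets the replicate arrays correlated with r = 0.9921 in Rec-1 and 0.9904 in Mino, and arrays of different lines with r between 0.9464 and 0.9473. The 3' probe set of GAPDH exceeded its 5' probe set by 0.413 and 0.367 on the Rec-1 arrays, against 0.260 and 0.250 on the Mino arrays, and that of ACTB by 1.999 and 1.825 in Rec-1, against 1.734 and 1.787 in Mino. Such gaps widen as RNA degrades, and both were wider in Rec-1. Their part in the differences was not tested.

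Of the 19775 genes, 5165 (26.1%) were called, 2529 higher in Rec-1 (12.8%) and 2636 lower (13.3%). The median difference over all genes was 0.01, and the median size of a called difference was 0.909. A change of at least 2-fold was seen in 2232 called genes (11.3%), 960 higher (4.85%) and 1272 lower (6.43%). At 16-fold or more there were 40 higher and 59 lower. Both Rec-1 arrays lay outside the range of both Mino arrays for 11438 genes (57.8%), above it for 30.0% and below it for 27.8%. Among the 14610 genes that were not called, 14039 had a 95% interval of the difference that stayed within 2-fold in both directions. Leaving out any 1 of the 4 arrays left between 3933 and 4193 calls. In bulk RNA, fewer cells that express a gene and less of its RNA per cell cannot be told apart.

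**Figure D1:**
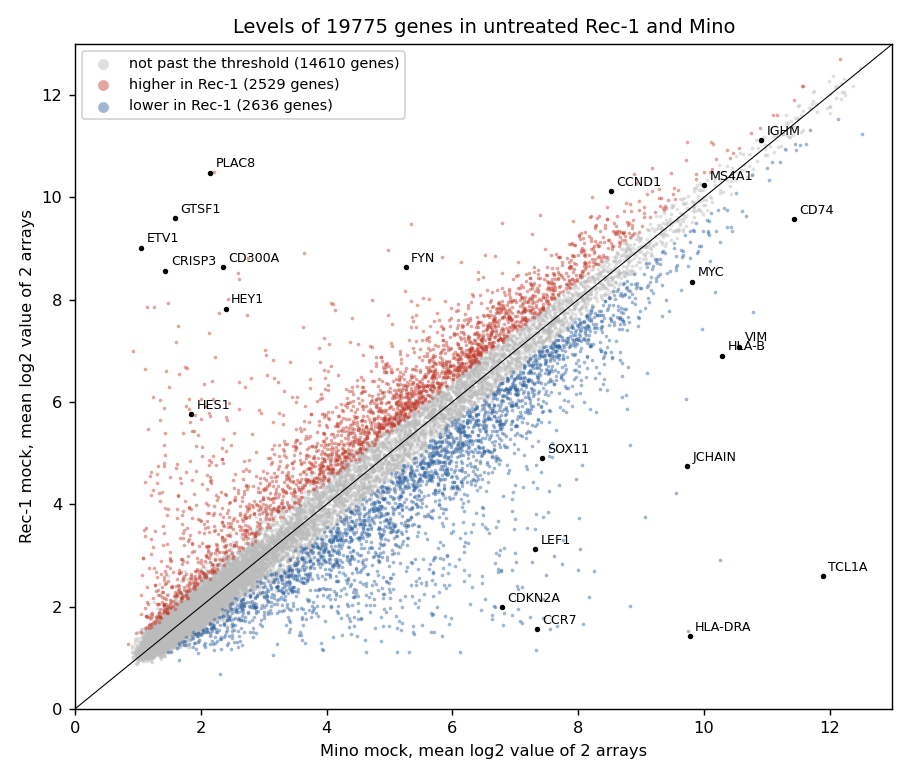
Mean log2 value of the 2 Rec-1 mock arrays (vertical axis) against that of the 2 Mino mock arrays (horizontal axis), with 1 point per gene. The diagonal marks equal levels, and named points such as PLAC8 at 10.48 against 2.15 and TCL1A at 2.59 against 11.89 lie far from it.

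The largest rises in Rec-1 were in genes near background in Mino. PLAC8, a small cysteine-rich protein of blood cells, had log2 values of 10.48 and 10.48 on the Rec-1 arrays against 2.30 and 2.0 on the Mino arrays, a difference of 8.33 (SE 0.14, limma adjusted p = 1.61e-11). GTSF1, a germline protein of small-RNA silencing, had 9.61 and 9.57 in Rec-1 against 1.72 and 1.45 in Mino. ETV1, a transcription factor of the ETS family, had 9.02 and 9.01 in Rec-1 against 0.96 and 1.14 in Mino, and all 5 of its probe sets were called higher. The replicates of each line lay close together in all of these genes, and the lines lay far apart. CRISP3, a secreted cysteine-rich protein, differed by 7.13, and ABCB1, the drug efflux pump also known as P-glycoprotein, by 6.71, with 7.95 and 7.75 in Rec-1 against 1.13 and 1.14 in Mino. MMP1, a collagenase, differed by 6.59, the long noncoding RNA CRNDE by 6.07, BBOX1, which makes carnitine, by 6.06, and UCHL1, a ubiquitin hydrolase best known in neurons, by 5.93. CD1D, which presents lipids to natural killer T cells, differed by 5.84, the nuclease DNASE1L3 by 5.78 and the potassium channel KCNJ16 by 5.57. The remaining genes among the 15 largest rises were IGKC, FCRL3 and CD300A.

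The largest falls ended near background in Rec-1. TCL1A, an AKT co-activator of early and naive B cells, had log2 values of 2.32 and 2.86 in Rec-1 against 11.93 and 11.84 in Mino, a difference of -9.30 (SE 0.16, limma adjusted p = 1.61e-11), and both of its probe sets were called lower. PLBD1, a phospholipase-like lysosomal protein, had 1.63 and 1.67 in Rec-1 against 8.11 and 8.06 in Mino. TFEC, a factor of the MITF family, had 1.18 and 1.12 in Rec-1 against 7.45 and 7.20 in Mino. In each of these genes Mino stood high and Rec-1 stood near background. CAV1, the main coat protein of caveolae, differed by -5.99, TKTL1, a transketolase-like protein, by -5.98, and the serine protease PRSS21 by -5.66. CHST15, a sulfotransferase, differed by -5.45 and INSM1, a zinc-finger factor of neuroendocrine cells, by -5.43. The other 7 of the 15 largest falls were HLA-DRA, HLA-DPA1, HLA-DPB1, HLA-DQA1, HLA-DQB1, IGLJ3 and CCR7.

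Of 14 Notch target genes 6 were called higher in Rec-1 and 3 lower, and 4 of 9 receptor and ligand genes were called higher and 1 lower. HEY1 stood 43.2-fold, HES1 15.2-fold and HES4 8.60-fold above Mino, while MYC was lower in Rec-1. Among the receptors, NOTCH2 had log2 values of 8.15 and 7.97 in Rec-1 against 7.0 and 7.18 in Mino, a difference of 0.97 (SE 0.13, limma adjusted p = 0.000170). NOTCH3 had 3.66 and 3.84 in Rec-1 against 2.26 and 2.45 in Mino (difference 1.40), and NOTCH1 had 5.46 and 5.51 in Rec-1 against 4.82 and 4.89 in Mino (difference 0.63). In these 3 genes both Rec-1 arrays lay above both Mino arrays, by less than 3-fold. Both Rec-1 arrays lay above both Mino arrays for 30.0% of all genes. NOTCH3 and NOTCH1 were each called on 1 of 2 probe sets, and the other differed by 0.10 and 0.43. JAG1, which encodes a ligand, differed by 1.48. NOTCH4 differed by -0.56, and its call was lost when Rec-1 replicate 1 or either Mino replicate was left out (adjusted p between 0.0518 and 0.194).

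The HES and HEY genes encode repressors that Notch switches on directly. HEY1 had log2 values of 7.88 and 7.77 in Rec-1 against 2.50 and 2.28 in Mino, a difference of 5.43 (SE 0.20, limma adjusted p = 5.39e-09). HES1 had 5.86 and 5.67 in Rec-1 against 1.69 and 2.0 in Mino, a difference of 3.92. HES4 had 5.11 and 5.14 in Rec-1 against 2.24 and 1.80 in Mino, a difference of 3.11. All 3 were near background in Mino and clearly above it in Rec-1, with no overlap, which also held for 57.8% of all genes. Both probe sets of HEY1 were called higher, but of 3 probe sets of HES1, another differed by 1.68 and the third by 0.05 at a level near background in both lines. HEY2 had 4.79 and 4.89 in Rec-1 against 2.27 and 3.11 in Mino, a difference of 2.15. NRARP, a feedback inhibitor of Notch, was well above background in both lines, at 5.43 and 5.44 in Rec-1 against 4.13 and 4.36 in Mino. DTX1, a ubiquitin ligase of the pathway, was high in both lines, at 8.93 and 8.82 in Rec-1 against 8.23 and 8.13 in Mino.

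The target list also held genes that went the other way. MYC, the growth regulator and a Notch target in T cells, had log2 values of 8.32 and 8.38 in Rec-1 against 9.92 and 9.72 in Mino, a difference of -1.46 (SE 0.18, limma adjusted p = 7.22e-05). CDKN1A, the cell cycle inhibitor p21, had 3.00 and 2.74 in Rec-1 against 7.13 and 6.89 in Mino, a difference of -4.14. IL2RA differed by -0.55, near background, and lost its call whichever of the 4 arrays was left out (limma adjusted p between 0.115 and 0.129). The 9 called target genes were 64.3% of the 14, beside 26.1% of all genes and 37.5% of genes that were not dim. Their list had a median difference of 0.23 against 0.01 over all genes. HES5 and HEYL, at or near background in both lines, were among the 5 that did not pass.

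Genes tied to Notch in B cells were mostly higher in Rec-1, 12 of 14 measured, with 1 lower and a median difference of 2.03. Several of them were named as Notch-linked in work on mantle cell lymphoma lines including Rec-1, so the list is not independent evidence of its direction. CD300A, an inhibitory receptor of the immunoglobulin superfamily, had log2 values of 8.62 and 8.64 in Rec-1 against 2.57 and 2.13 in Mino, a difference of 6.28 (SE 0.22, limma adjusted p = 4.26e-09). CR2, the complement receptor CD21, had 5.63 and 5.67 in Rec-1 against 1.42 and 1.29 in Mino. FYN, a kinase of the SRC family, had 8.61 and 8.66 in Rec-1 against 5.13 and 5.38 in Mino, a difference of 3.38, and 3 of its 5 probe sets were called higher. CD300A and CR2 were at background in Mino, whereas FYN was present in both lines and higher in Rec-1. CCR7, the receptor that guides lymphocytes into lymph nodes, was the one member that was lower, at 1.25 and 1.87 in Rec-1 against 7.29 and 7.39 in Mino.

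**Figure D2:**
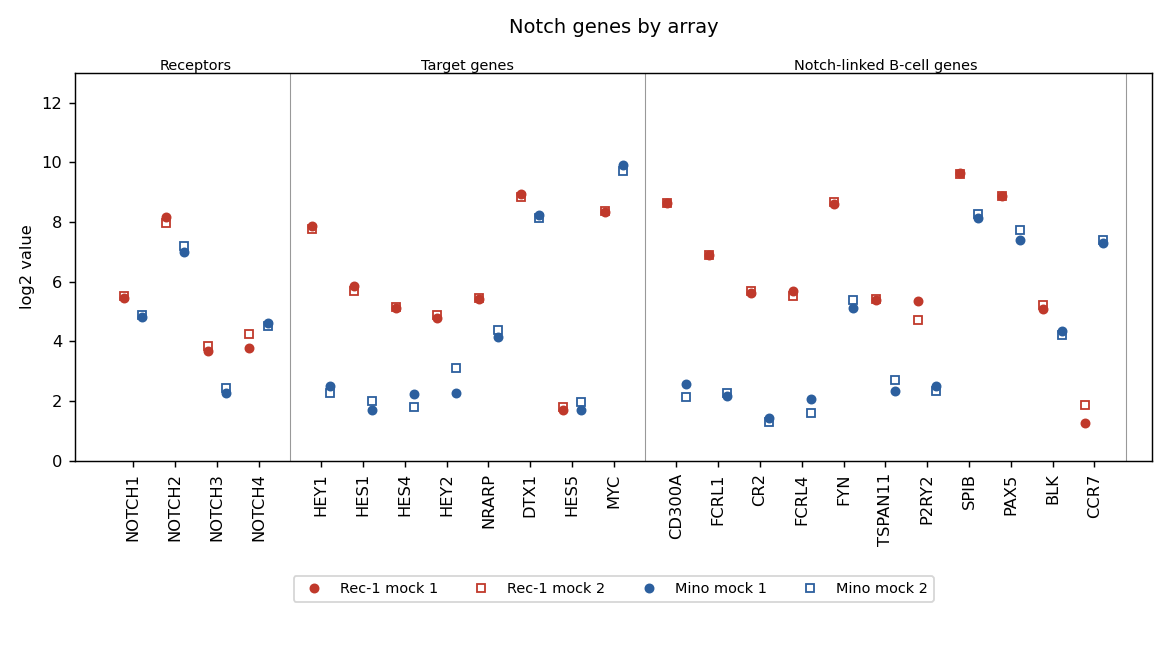
Log2 value (vertical axis) of Notch receptors, target genes and Notch-linked B-cell genes on each array, with Rec-1 mock in red on the left of each gene and Mino mock in blue on the right. HEY1, HES1, HES4, CD300A and CR2 are well separated with Rec-1 on top, MYC and CCR7 are separated with Mino on top, and HES5 overlaps.

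Both lines carried B-cell markers. Of 5 defining B-cell genes measured, 4 were called higher in Rec-1 and none lower, and MS4A1, which encodes CD20, was at 10.25 and 10.23 in Rec-1 against 10.08 and 9.92 in Mino (difference 0.24, limma adjusted p = 0.220). PAX5, the factor that keeps B-cell identity, had 8.86 and 8.87 in Rec-1 against 7.41 and 7.72 in Mino (difference 1.30). The other of its 2 probe sets differed by -0.14 and was not called. CD79A, a signalling chain of the antigen receptor, differed by 1.12 and CD22, a brake on that receptor, by 1.37. CD79B, its partner chain, differed by 0.53, a call lost without Mino replicate 1 (limma adjusted p = 0.0638).

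Surface antigens of B cells were called in 19 of 24 genes, 15 higher and 4 lower in Rec-1, with a median difference of 0.68. The Fc receptor-like genes on chromosome 1, which encode receptors that tune B-cell activation, showed the widest gaps. FCRL3 had log2 values of 7.96 and 7.93 in Rec-1 against 1.51 and 1.45 in Mino, a difference of 6.47 (SE 0.15, limma adjusted p = 1.48e-10). FCRL2 had 7.92 and 7.57 in Rec-1 against 2.11 and 2.46 in Mino, FCRL1 had 6.88 and 6.89 in Rec-1 against 2.18 and 2.27 in Mino, and FCRL4 had 5.69 and 5.51 in Rec-1 against 2.05 and 1.59 in Mino. These 4 genes were near background in Mino and present in Rec-1. FCRL5 was present in both lines, with a difference of 1.16, and FCRLA differed by -0.12, which was not called. Another of the 3 probe sets of FCRLA was called higher, by 1.07. On the other side, CD27, a receptor of memory B cells, differed by -1.45, CD72, a co-receptor of the antigen receptor, by -1.0 and CD52, the target of alemtuzumab, by -0.81.

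Markers of mantle cell lymphoma were divided, with 3 of 14 called higher in Rec-1 (CCND1 counted by its brighter probe set) and 7 lower (median -0.56). SOX11, a transcription factor that most mantle cell lymphomas express, was present in both lines, with log2 values of 4.99 and 4.81 in Rec-1 against 7.40 and 7.45 in Mino, a difference of -2.53 (SE 0.13, limma adjusted p = 6.61e-08). All 3 of its probe sets were called lower. CD5, the T-cell antigen that marks this lymphoma, had 2.47 and 2.33 in Rec-1 against 4.82 and 3.92 in Mino. LILRA4, a receptor best known on plasmacytoid dendritic cells, had 8.84 and 8.84 in Rec-1 against 5.73 and 5.93 in Mino (difference 3.01), and the cannabinoid receptor CNR1 differed by 2.15. PON2, DBN1 and CCND2 were lower, with differences of -1.72, -1.73 and -2.12, the last on 1 of 4 probe sets of CCND2 while the other 3 were at background in both lines.

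CCND1, which encodes cyclin D1, gave opposite answers on its 2 probe sets. The brighter one had log2 values of 10.12 and 10.13 in Rec-1 against 8.51 and 8.54 in Mino, a difference of 1.60 (SE 0.11, limma adjusted p = 1.18e-06). The other had 2.02 and 1.72 in Rec-1 against 9.53 and 8.98 in Mino, a difference of -7.39 (adjusted p = 8.16e-10 in limma over all probe sets). By the first probe set the gene was high in both lines and higher in Rec-1, and by the second it was at background in Rec-1 and high in Mino. Cyclin D1 messages with long and with shortened 3' ends are known in this lymphoma, but where each probe set lies on the message was not analysed here. No direction is therefore given for the gene as a whole.

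Of 26 transcription factors of the B lineage, 11 were called higher in Rec-1 and 7 lower, with a median of 0.13. ID2, an inhibitor of E proteins, had log2 values of 7.91 and 7.92 in Rec-1 against 4.40 and 3.81 in Mino, a difference of 3.81 (SE 0.17, limma adjusted p = 2.08e-08). LEF1, the partner of beta-catenin in Wnt signalling, had 3.36 and 2.88 in Rec-1 against 7.32 and 7.32 in Mino, a difference of -4.20. The 2 factors thus moved in opposite directions by more than 10-fold each. IRF8 (2.49), MEF2C (1.73) and SPIB (1.43), all regulators of mature B cells, were higher in Rec-1. ELF1 (-1.02), ID3 (-1.06) and IRF4 (-0.78), a factor of activated B cells and plasma cells, were lower, and IRF4 lost its call when its 3 probe sets were averaged (limma adjusted p = 0.0578). BCL6, the repressor that governs germinal centre cells, differed by 1.77 on 1 of 3 probe sets. Other germinal centre genes higher in Rec-1 were the adaptor STAP1 (2.20), the surrogate light chain relative VPREB3 (1.58) and the elongation factor ELL3 (1.57), and of 12 in that list 6 were called higher and 1 lower (BCL7A, which lost its call whichever of the 4 arrays was left out).

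Signalling genes of the B-cell receptor were called higher more often than lower, 13 against 5 of 25, with a median of 0.53. LYN, the first kinase of the cascade, had log2 values of 9.56 and 9.71 in Rec-1 against 8.24 and 8.18 in Mino, a difference of 1.42 (SE 0.15, limma adjusted p = 3.01e-05). The inhibitory Fc receptor FCGR2B differed by 2.35 and the kinase PRKCB, which links the receptor to NF-kB, by 1.09. PRKCB was called on 1 of its 6 probe sets. PIK3CG, a catalytic subunit of PI3 kinase, had 2.70 and 2.59 in Rec-1 against 5.64 and 5.75 in Mino, a difference of -3.05, and PLCG2, the phospholipase of the cascade, differed by -0.84. The count of lower members was 3 without Rec-1 replicate 1.

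Immunoglobulin probe sets separated the lines by light chain. The brightest IGKC probe set, for the kappa constant region, had log2 values of 10.41 and 10.56 in Rec-1 against 2.28 and 2.13 in Mino, a difference of 8.28 (SE 0.16, limma adjusted p = 3.15e-11). The brightest IGLJ3 probe set, annotated to the lambda locus, had 2.53 and 3.28 in Rec-1 against 10.33 and 10.17 in Mino, a difference of -7.34. Probe sets for light chains can bind several related sequences, and 3 of 8 for IGKC were called higher, so the identity of the measured message is uncertain. IGHM, the mu heavy chain, was high in both lines at 11.13 and 11.12 in Rec-1 against 10.97 and 10.86 in Mino, and was not called, whereas IGHD, the delta chain, differed by -2.03.

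Genes of plasma cells were more often lower in Rec-1. JCHAIN, which joins immunoglobulin polymers, had log2 values of 4.81 and 4.69 in Rec-1 against 9.71 and 9.76 in Mino, a difference of -4.99 (SE 0.17, limma adjusted p = 3.80e-09). TNFRSF17, the survival receptor BCMA, had 2.37 and 2.39 in Rec-1 against 7.01 and 7.21 in Mino. SDC1, which encodes CD138, differed by -2.76 and CREB3L2, a factor of secretory cells, by -1.82. ELL2, an elongation factor of antibody secretion, went the other way, by 2.40, but was called on only 1 of its 4 probe sets. PRDM1, the master regulator of plasma cells, was low in both lines and differed by -0.03 (limma adjusted p = 0.975). Of 20 genes in the list of immunoglobulin and plasma-cell genes, 2 were called higher and 8 lower, with a median of -0.10.

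MHC class II genes were lower in Rec-1, 12 of 16 measured, with 1 called higher and a median difference of -2.14 against 0.01 over all genes. HLA-DRA, the alpha chain of the DR molecule, had log2 values of 1.65 and 1.19 in Rec-1 against 9.73 and 9.82 in Mino, a difference of -8.36 (SE 0.15, limma adjusted p = 2.45e-11). HLA-DPA1 had 1.51 and 1.52 in Rec-1 against 9.71 and 9.80 in Mino, HLA-DQA1 had 1.48 and 1.74 in Rec-1 against 7.57 and 7.74 in Mino, and HLA-DPB1 had 2.45 and 1.56 in Rec-1 against 8.92 and 8.75 in Mino. These alpha and beta chains stood at background in Rec-1 and far above it in Mino. HLA-DRB1 differed by -5.35 and HLA-DQB1 by -5.55. The genes that load peptides onto class II were also lower, with a difference of -3.47 for HLA-DMB and of -1.91 for HLA-DMA, which was at 5.76 and 5.93 in Rec-1 against 7.72 and 7.80 in Mino. CD74, the chaperone that guides class II molecules, was bright in both lines, at 9.51 and 9.64 in Rec-1 against 11.36 and 11.50 in Mino. HLA genes have near-identical copies and vary between people, so a probe set's value can depend on the allele a line carries.

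The list of class II genes also held their regulators. CIITA, the co-activator of these genes, had log2 values of 2.37 and 2.61 in Rec-1 against 2.75 and 2.30 in Mino, a difference of -0.04 (SE 0.23, limma adjusted p = 0.952). All 3 of its probe sets lay close to background in both lines, so these arrays give no firm level for it. RFX5 differed by -0.17 and was not called, whereas RFXAP, another subunit of the RFX complex, had 4.38 and 4.02 in Rec-1 against 5.72 and 5.74 in Mino, a difference of -1.53. RFXANK differed by 0.50, and its call was lost without either Rec-1 replicate or Mino replicate 1 (adjusted p between 0.0819 and 0.209).

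Genes of MHC class I presentation were also mostly lower in Rec-1, 12 of 18 measured, with 2 higher and a median of -1.01. HLA-E, a ligand of natural killer cell receptors, had log2 values of 3.76 and 3.71 in Rec-1 against 8.01 and 8.01 in Mino, a difference of -4.28 (SE 0.24, limma adjusted p = 1.36e-07). HLA-B had 6.87 and 6.94 in Rec-1 against 10.43 and 10.16 in Mino, and HLA-C had 8.18 and 8.11 in Rec-1 against 10.14 and 10.20 in Mino. HLA-B and HLA-C thus remained well above background in Rec-1. ERAP2, which trims peptides, differed by -4.08, the transporter TAP1 by -1.0 and the immunoproteasome subunit PSMB8 by -1.61. B2M, the light chain shared by class I molecules, was bright in both lines and differed by -0.51, a call lost without Rec-1 replicate 2 or Mino replicate 1 (limma adjusted p = 0.0937 and 0.0983). PSMB10, another immunoproteasome subunit, and CALR, a chaperone of the endoplasmic reticulum, were higher, by 1.12 and 0.71.

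**Figure D3:**
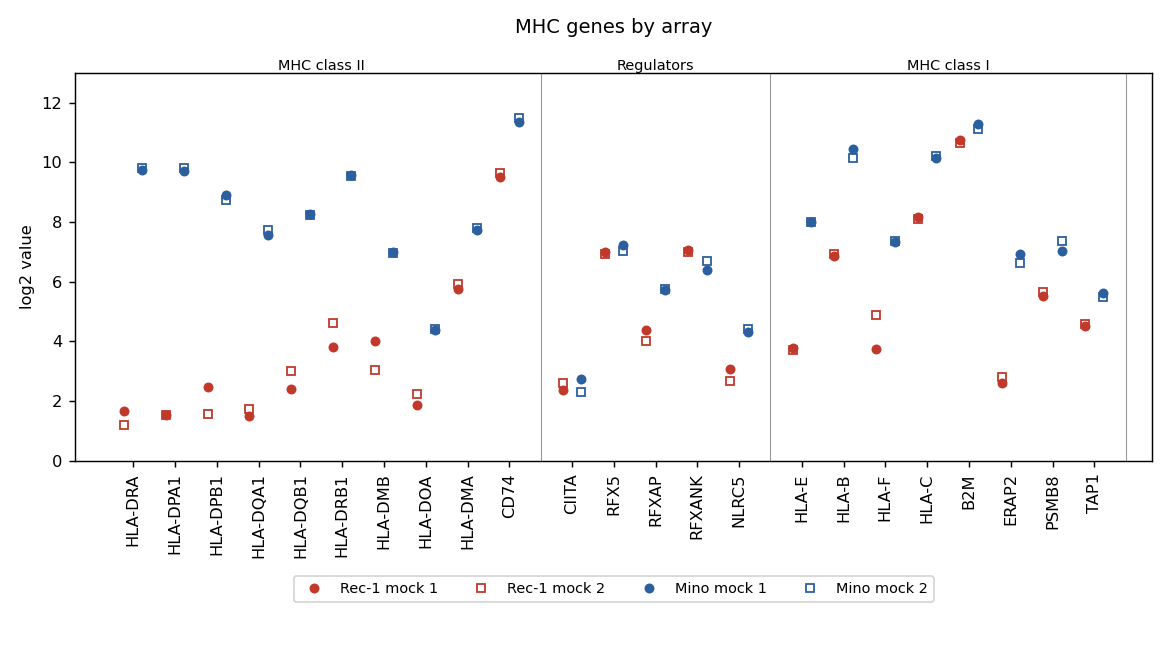
Log2 value (vertical axis) of MHC class II genes, their regulators and MHC class I genes on each array, with Rec-1 mock in red on the left of each gene and Mino mock in blue on the right. HLA-DRA, HLA-DPA1, HLA-DPB1 and HLA-DQA1 lie at or under 2.45 in Rec-1 and at or above 7.57 in Mino, while CIITA overlaps near background.

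Of 37 genes induced by interferon, 4 were called higher in Rec-1 and 12 lower, with a median of 0.02. This was a called share of 43.2%, beside 26.1% of all genes and 37.5% of genes that were not dim. IFITM1, a membrane protein that blocks virus entry, had log2 values of 4.43 and 4.55 in Rec-1 against 7.88 and 8.06 in Mino, a difference of -3.48 (SE 0.14, limma adjusted p = 8.55e-09). EIF2AK2, a kinase that senses double-stranded RNA, differed by -1.98, IFITM2 by -1.64 and MX1, an antiviral GTPase, by -1.51. CXCL10, a chemokine that interferon gamma induces, went the other way, with 6.35 and 6.46 in Rec-1 against 1.70 and 2.64 in Mino. The transcription factors IRF7 and IRF9 were also higher, by 1.59 and 0.93.

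Genes of NF-kB signalling, which B cells use for survival, were called in 7 of 19 regulators, 5 higher and 2 lower (3 higher without Rec-1 replicate 1, and 1 lower whichever array was left out), and in 12 of 25 targets, 9 higher and 3 lower (1 lower without Rec-1 replicate 1 or Mino replicate 2). BCL2A1, an anti-apoptotic target, had log2 values of 5.43 and 5.98 in Rec-1 against 2.11 and 2.69 in Mino, a difference of 3.31 (SE 0.24, limma adjusted p = 1.28e-06). LTB, which encodes lymphotoxin beta, had 7.26 and 6.99 in Rec-1 against 3.99 and 4.07 in Mino, and EBI3, a cytokine subunit, differed by 2.76. TNFAIP3, the ubiquitin editor A20 that ends the signal, differed by 0.92 and the inducible regulator NFKBIZ by 1.42. TRAF3, a brake on the noncanonical arm, differed by -0.68 and CD44, the hyaluronan receptor, by -1.17. The medians were 0.16 for the regulators and within 0.01 of zero for the targets. The called shares were 36.8% of the regulators and 48.0% of the targets, beside 37.5% of all genes that were not dim. The regulators were thus called about as often as such genes.

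Receptors of cytokines and death ligands were more often lower in Rec-1. In the TNF-receptor family 5 of 25 were called higher (3 without Rec-1 replicate 1 or Mino replicate 1) and 9 lower, among them the ligand TNFSF8 (-3.93) and TNFRSF10B (-2.94), a death receptor for TRAIL. TNFRSF10B was called on 1 of its 4 probe sets, and the highest difference among them was 0.37. TNFRSF13B, the receptor TACI, was higher by 1.13. Of 23 cytokine receptors 3 were called higher and 9 lower. Called shares were 56.0% of the TNF-receptor family and 52.2% of the cytokine receptors. Over all genes the share was 26.1%, and over genes that were not dim 37.5%. IL10RA had log2 values of 7.05 and 7.05 in Rec-1 against 3.71 and 4.04 in Mino, a difference of 3.18 (SE 0.18, limma adjusted p = 1.43e-07), while its partner IL10RB had 3.15 and 2.31 in Rec-1 against 5.47 and 5.44 in Mino, a difference of -2.72. The 2 chains of the interleukin 10 receptor thus ran in opposite directions. IFNGR1, a chain of the interferon gamma receptor, was higher by 2.64. CSF2RB, the shared chain of the interleukin 3 and interleukin 5 receptors, differed by -3.18 and IL2RG, the common gamma chain, by -2.10.

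Receptors that place B cells within lymphoid tissue differed in both directions, with 6 of 23 chemokine and trafficking genes called higher in Rec-1 and 5 lower. The called share of that list was 47.8%, beside 26.1% of all genes and 37.5% of genes that were not dim. CXCR5, which guides B cells into follicles, had log2 values of 6.18 and 6.26 in Rec-1 against 3.06 and 3.59 in Mino, a difference of 2.89 (SE 0.19, limma adjusted p = 5.03e-07). GPR183, an oxysterol receptor that directs B cells to the follicle edge, differed by 3.10, and S1PR1, the exit receptor of lymphoid tissue, by 1.79. CXCR4, the receptor for the stromal chemokine CXCL12, had 6.63 and 6.52 in Rec-1 against 9.01 and 9.20 in Mino, a difference of -2.53, with all 3 probe sets called lower. Beside CCR7, CXCR4 was thus lower while CXCR5, GPR183 and S1PR1 were higher in Rec-1. P2RY8, which confines cells to germinal centres, was lower, with a difference of -2.28.

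Adhesion genes were called in 10 of 28, 3 higher and 7 lower, a share of 35.7% beside 26.1% of all genes and 37.5% of genes that were not dim. ITGB2, the beta chain of leukocyte integrins, had log2 values of 1.08 and 1.16 in Rec-1 against 6.40 and 5.83 in Mino, a difference of -5.00 (SE 0.19, limma adjusted p = 5.92e-09). ITGAL, its partner in the integrin LFA-1, differed by -2.26. CD58, a ligand for T cells and natural killer cells, differed by -1.76. ITGAE and ICAM1 were higher, by 1.31 and 1.16.

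Genes of survival were called in both directions. In the BCL2 family 4 of 16 were called higher and 6 lower. This was a called share of 62.5%, beside 26.1% of all genes and 37.5% of genes that were not dim. HRK, counted as lower, lost its call in 12 of 17 alternatives, and BMF, counted as higher, in 4. BCL2, the anti-apoptotic founder of the family, had log2 values of 5.83 and 5.59 in Rec-1 against 6.56 and 6.92 in Mino, a difference of -1.03 (SE 0.15, limma adjusted p = 0.000244), which was lost when its 4 probe sets were averaged (-0.31, adjusted p = 0.0553). BCL2L11, the death-promoting protein BIM, differed by 1.16 and PMAIP1, which encodes NOXA, by -1.33.

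Of 20 cyclins, kinases, inhibitors and related genes 3 were called higher in Rec-1 and 8 lower. CCND1 was counted among the higher ones by its brighter probe set, and 2 were higher and 8 lower when probe sets were averaged per gene. CDKN2A, which encodes p16 and p14ARF, had log2 values of 1.88 and 2.09 in Rec-1 against 6.73 and 6.85 in Mino, a difference of -4.81 (SE 0.17, limma adjusted p = 4.51e-09). Of its 3 probe sets 2 were called lower. MTAP, its neighbour on chromosome 9, had 4.52 and 4.58 in Rec-1 against 5.49 and 5.63 in Mino, a difference of -1.01 that was called on 2 of 6 probe sets. CDKN2A was thus at background in Rec-1 while MTAP was not. RB1, the retinoblastoma protein, had 6.18 and 6.08 in Rec-1 against 7.52 and 7.53 in Mino, and its relative RBL2 differed by -1.98. The kinases CDK2 and CDK4 were higher, by 1.20 and 0.90. The inhibitors CDKN1B, CDKN2B and CDKN2D were not called, with differences of -0.09, 0.07 and 0.47.

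Of 32 genes of G2 and M phase 18 were called higher and 4 lower, with a median of 0.39, but leaving out Rec-1 replicate 1, Rec-1 replicate 2 or Mino replicate 1 left 9 higher. TTK, a spindle checkpoint kinase, had log2 values of 7.12 and 7.09 in Rec-1 against 5.71 and 6.01 in Mino, a difference of 1.25 (SE 0.15, limma adjusted p = 8.17e-05), and PLK1, a mitotic kinase, differed by 1.06. TOP2A, a topoisomerase that untangles chromosomes, and the checkpoint kinase BUB1 were lower, with differences of -1.18 and -1.17. Genes of G1 and S phase were called higher in 3 and lower in 7 of 26, and the lower count was 4 without Rec-1 replicate 1 or Mino replicate 1. The called share of the G1 and S genes was 38.5%, close to the 37.5% of all genes that were not dim. POLA1, a DNA polymerase subunit, differed by -1.24 and the replication licensing factor MCM6 by -0.77, while MCM2 was higher by 0.75.

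The 27 ribosome biogenesis genes linked to MYC were called in both directions, 7 higher and 6 lower (MYC among them), with a median of 0.06. Their called share was 48.1%, beside 26.1% of all genes and 37.5% of genes that were not dim. PES1 and NOP16, nucleolar factors, were higher by 0.79 each, and WDR12 and NOLC1 were lower, with differences of -0.86 and -0.80. Ribosomal protein genes were called in 5 of 22, 4 higher and 1 lower, a share of 22.7% beside 26.1% of all genes, and leaving out any 1 array left 1 or 2 higher.

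Genes of glycolysis and hypoxia were more often lower in Rec-1, 14 of 29 with 4 higher and a median of -0.44. The lower count was 7 without Rec-1 replicate 1 and 9 without Mino replicate 1, and the higher count was 1 without Rec-1 replicate 2 and 2 without Mino replicate 1. PDK1, which keeps pyruvate from the mitochondria, had log2 values of 3.43 and 3.48 in Rec-1 against 6.42 and 6.17 in Mino, a difference of -2.84 (SE 0.21, limma adjusted p = 1.64e-06). The phosphofructokinase genes PFKP, PFKM and PFKL were lower, with differences of -1.71, -1.36 and -1.21. PFKP was called on 1 of 2 probe sets, and the other differed by 0.03. SLC2A1, the glucose transporter GLUT1, was higher by 0.73. Cholesterol and fatty acid synthesis had 6 of 19 genes called higher and 2 lower. This was a called share of 42.1%, beside 26.1% of all genes and 37.5% of genes that were not dim. In this list SC5D (2.34), SQLE (1.44) and HMGCS1 (1.27) of the sterol pathway were higher and the fatty acid elongase ELOVL6 was lower (-2.05). This list and those of heat-shock, ribosomal protein and cancer-testis genes had under 80% of their genes measured.

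Heat-shock genes divided by member, 6 of 14 called higher and 3 lower. HSPB1, the small chaperone HSP27, had log2 values of 2.71 and 2.72 in Rec-1 against 7.97 and 8.02 in Mino, a difference of -5.28 (SE 0.15, limma adjusted p = 7.26e-10). CHORDC1, a partner of HSP90, was higher by 2.02 and HSPA5, the chaperone BiP of the endoplasmic reticulum, by 1.10. Immediate-early genes were called in 5 of 25, a share of 20% that lies under the 26.1% of all genes, 3 higher and 2 lower (1 higher and 4 lower without Mino replicate 2, and 1 lower without Mino replicate 1), with EGR1, a growth-factor response gene, at 4.79 and 5.03 in Rec-1 against 3.02 and 3.10 in Mino. Of 19 cancer-testis antigens, genes that tumours share with the germ line, TKTL1 alone was called, and 16 of the 19 were dim.

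**Figure D4:**
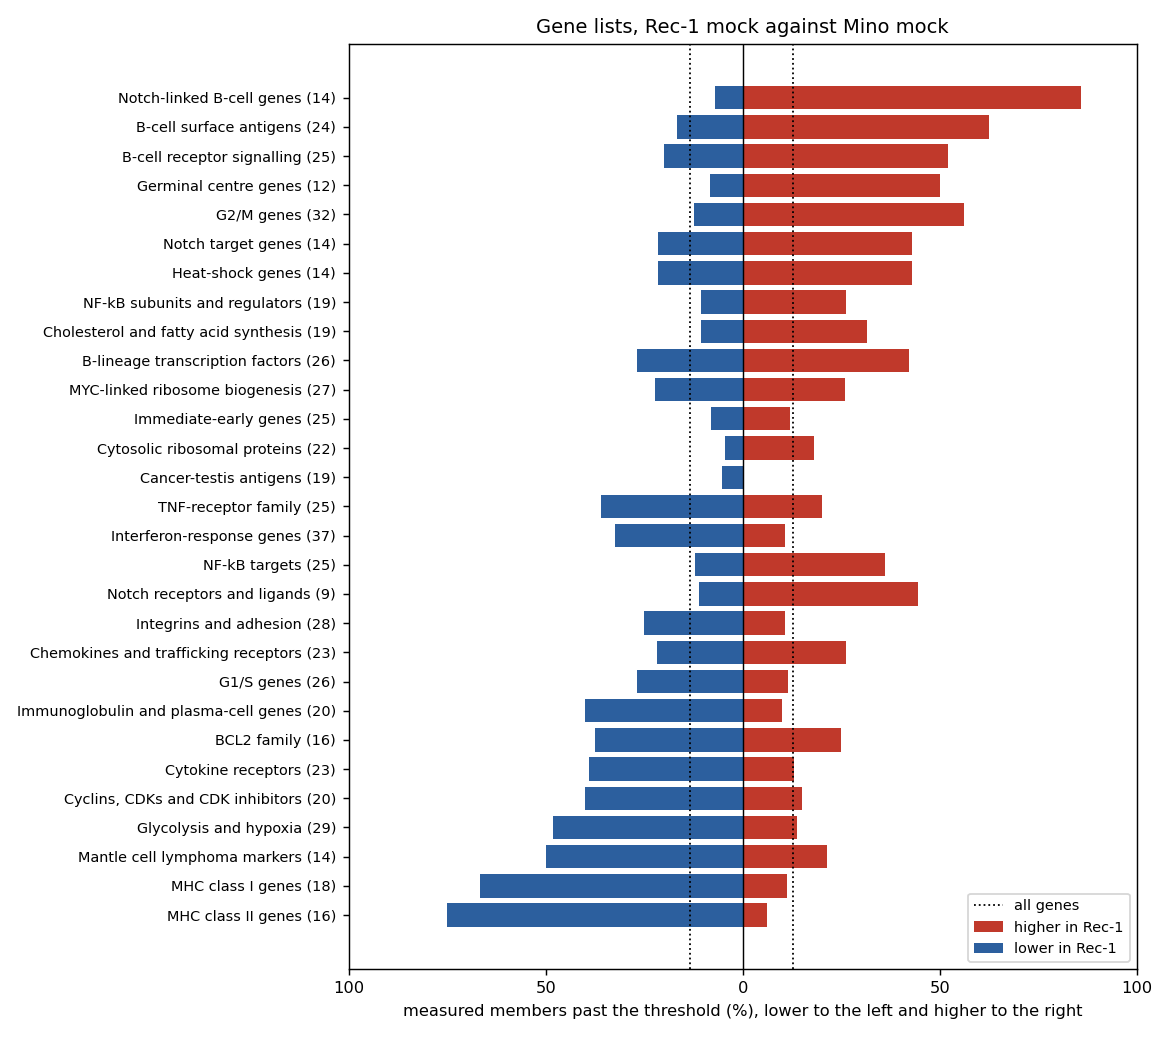
Share of the measured members of 29 of the 30 lists called higher in Rec-1 (right, red) and lower in Rec-1 (left, blue), in percent, with the number measured in parentheses and the lists ordered by median difference. The dotted lines mark the shares over all genes, 12.8% higher and 13.3% lower, and 27 of the 30 lists had more than 26.1% of their members called. Of genes that were not dim 37.5% were called. The lists of adhesion genes (35.7%) and NF-kB regulators (36.8%) lay under that share, as did the lists under 26.1%.

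Markers of other cell types were low in both lines with few exceptions. None of 10 myeloid markers and none of 4 red-cell markers measured was called, and the myeloid values summed to 16.1 and 16.3 in Rec-1 against 16.3 and 16.4 in Mino. Defining genes of myeloid cells, CD14 and LYZ, lay at or under 1.72 on all 4 arrays. Of 12 T-cell markers, CD3D alone was called higher (3 were without Rec-1 replicate 1 and 2 without Mino replicate 1), by 2.44, with 4.81 and 4.79 in Rec-1 against 2.26 and 2.46 in Mino, and the kinases LCK and ZAP70 were lower, with differences of -3.00 and -2.22. The list summed to 28.3 and 31.5 in Rec-1 against 30.4 and 31.7 in Mino, and CD2, CD4 and CD8A were not called. PRF1, which encodes perforin, was the 1 of 9 natural killer markers that was called, with 3.44 and 3.64 in Rec-1 against 7.08 and 7.28 in Mino, while NKG7 and GNLY stayed at or under 2.17. VIM, an intermediate filament that leukocytes also express, had 7.08 and 7.08 in Rec-1 against 10.56 and 10.56 in Mino, while the stromal collagens COL1A2 and COL3A1 were low and not called. Of 9 epithelial markers, EPCAM was lower, with a difference of -1.70, and KRT18, near background, differed by 0.46, a call lost without either Rec-1 replicate or Mino replicate 2 (limma adjusted p between 0.127 and 0.318). Most of these lists thus lay near background on all 4 arrays.

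Calls were spread unevenly over chromosomes. Of 13550 genes whose level passed the arrays' median in at least 1 line, 5087 (37.5%) were called, 18.3% higher and 19.2% lower in Rec-1. On chromosome 13 the shares were 6.25% higher and 48.2% lower among 224 genes, with a median difference of -0.511. Chromosomes 7, 15 and 2 leaned the same way, with 38.9%, 37.6% and 32.9% lower. On chromosome 3 the shares were 37.8% higher and 8.45% lower among 722 genes, with a median of 0.282, and chromosomes 9, 8 and 11 had 31.5%, 31.2% and 29.3% higher. The replicate arrays of each line had similar median deviations from each gene's mean over the arrays compared. For chromosome 13 these were -0.225 and -0.239 on the Rec-1 arrays and 0.233 and 0.250 on the Mino arrays. For chromosome 3 they were 0.165 and 0.156 in Rec-1 and -0.161 and -0.138 in Mino. Deviations from a shared mean balance between the lines, so the opposite signs are built in and are no further evidence. DNA copy number was not measured here, and its part in the uneven shares was not tested. Neighbouring genes are not independent, so these shares are a description.

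**Figure D5:**
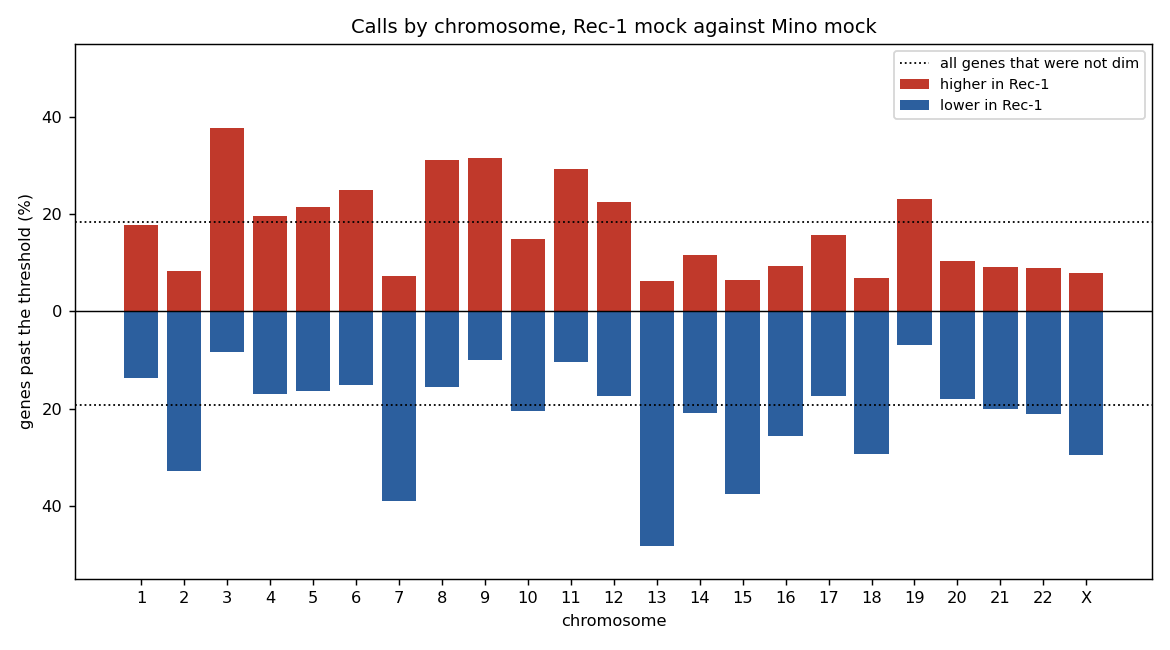
Percentage of genes called higher in Rec-1 (up, red) and lower in Rec-1 (down, blue) on each chromosome, among the 13550 genes that were not dim. The dotted lines mark 18.3% higher and 19.2% lower over all these genes, and chromosome 13 reaches 48.2% lower while chromosome 3 reaches 37.8% higher.

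Some neighbouring genes were called in 1 direction without a break. There were 32 runs of at least 6 neighbouring genes that were not dim, and 15 to 17 when any 1 of the 4 arrays was left out. The longest, of 11 genes each, were on chromosome 13 and chromosome 3. The run on chromosome 13 was lower in Rec-1 (median -1.65) and reached across RB1, the actin-bundling gene LCP1 and SUCLA2, a mitochondrial ligase. Another run of 10 genes on that chromosome held FOXO1 and ELF1 (median -1.21). The difference of FOXO1 was -0.71, and it lost its call without Mino replicate 2 (-0.53, limma adjusted p = 0.0682). The run on chromosome 3 was higher in Rec-1 (median 1.59) and held NFKBIZ, the adhesion gene ALCAM, the ubiquitin ligase CBLB and CD47, the signal that holds off macrophages. Chromosome 2 had 7 runs, all lower in Rec-1, one of which ended in MCM6 and CXCR4. Of 4 runs on chromosome 6, 3 were lower in Rec-1: class II genes with NOTCH4 beside them (7 genes, median -5.35), the loading and immunoproteasome genes around TAP1 (6 genes, median -1.76) and butyrophilin genes with HMGN4 (6 genes, median -1.55). The fourth was higher in Rec-1 and reached across NEDD9 and HIVEP1 (7 genes, median 1.92). HEY1 lay in a run of 7 genes on chromosome 8 that was higher in Rec-1 (median 2.13) and also held the cytokine gene IL7.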

How the data were processed

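RNA of 12 Affymetrix arrays was analysed, of which 4 were compared and all served to estimate the spread. The authors deposited log2 values per probe set, normalized between arrays, and RMA and limma are named without versions per the submitters' processing notes. Base 2 was inferred from the range of 0.58 to 12.78, and a genome build is not given in the sources used here. RNA was extracted with Qiagen Allprep and labelled with biotin, per the labels' protocols.

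Of 54675 probe sets, 41097 named 1 gene, 1801 several and 11777 none in the platform annotation, and 41043 were given current symbols by gene number from the RefSeq table. A gene was represented by its probe set with the highest mean over the 12 arrays, which left 10523 of 19775 genes with a choice. Where the text names no probe set, other probe sets of the gene may not have been called. Genes with low values were kept. A gene was called dim when both group means lay under 1.99.

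Group means of the 6 groups were fitted with limma 3.58.1 in R 4.3.3 (6 residual and 5.22 prior degrees of freedom). The two-sided p-values were adjusted with the Benjamini-Hochberg method over all 19775 genes, with a threshold of 0.05. Intervals are at 95% for single genes. In simulated arrays of this layout with 19775 genes, 50 genes were changed at each size. Of those changed by 0.5, 1, 2 and 4 log2 units, 10%, 64%, 98% and 100% were recovered, with 2 false calls. Far fewer genes were changed than the 5165 called here, so the adjusted threshold was stricter there. These shares therefore do not give the recovery in this comparison.

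The members and all 37 lists (30 of pathways, 7 of cell markers) were chosen with earlier results of these data known, from textbook knowledge. They are described by counts and medians and were not tested as sets. Named were the 15 largest rises and the 15 largest falls that did not overlap, up to 4 members per list and direction with the smallest adjusted p, some fixed genes of Notch, the cell cycle and B cells, and members of runs of neighbouring genes. Other list members, such as HEY2, DTX1, HES5, HEYL, CD74, RFX5, RFXAP, B2M, FCRL5, FCRLA, ITGAL, IGHM, CDKN1B, CDKN2B, CDKN2D and uncalled markers, were named after their values were seen. List genes that could not be matched were not analysed here, and some results are not reported here.

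Alternatives changed the probe sets (each tested separately, or averaged per gene), the genes (without dim ones, by either of 2 rules), the scaling (quantile again, or centred on medians), the prior (with an intensity trend, robust), the arrays (only those compared, only mock arrays, without 2 inhibitor arrays, weighted, or without each compared array in turn), the smallest fold tested (1.5) and the block (replicate number). When an array was left out, the remaining one was assumed to vary like those of the other groups.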

Additional observations from a re-analysis of the deposited data

How the results depend on the processing

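Across 17 alternatives the main count of 5165 called genes stayed within 1.5 times except for 9194 with every probe set tested on its own (of 54675) and 1736 with a minimum of 1.5-fold. Calls of at least 2-fold stayed near 2232 except for 4128 with every probe set on its own, 1431 with probe sets averaged per gene and 1726 with the minimum of 1.5-fold. Leaving out 1 array gave 3933 to 4193 calls, 2199 to 2282 of at least 2-fold, 27 to 28 of 30 lists above the share of all genes and 15 to 17 runs of neighbouring genes, against 32 runs with all arrays and 1 with the minimum of 1.5-fold. Fewer genes are called in those fits, which shortens runs by construction. Same-numbered replicates did not deviate together (correlation of replicate differences 0.007), and a replicate block gave 5230 calls, 2235 of at least 2-fold, 27 lists and 32 runs. Among 540 called genes that were named or listed, 277 had no loss of their call in any of the 17 settings. Leaving aside the minimum of 1.5-fold, 390 had none. Genes left out of a setting as dim had no value there. A reversal of sign was not counted as a loss, so CCND1 is within both counts. A reversal of sign was counted for 6 named or listed genes, all with probe sets averaged per gene. The called genes among them were CCND1 (-2.89), TPD52 (-0.09) and E2F2 (0.04). FCRLA (0.35), GRB2 (0.51) and MCL1 (0.54) were not called in the main fit. They were counted because the average was called with the opposite sign, and other sign changes of uncalled genes were not counted. The average mixes probe sets of different level, and the cause was not tested further. Probe sets near background limit what can be said of genes low in both lines.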

Other observations

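Of 10523 genes with several probe sets, 3418 were called by the brightest one, 649 of them with all probe sets called the same way. Probe sets called in both directions occurred in 83 genes, CCND1 among them, whose second probe set differed by -7.39 against 1.60 for the first. BCL2L11, which encodes the death-promoting protein BIM, had 7 probe sets, of which 5 were called higher in Rec-1, with differences of up to 4.16. The probe set with that value was at 5.95 and 5.39 in Rec-1 against 1.46 and 1.57 in Mino. IGKC had 8 probe sets, 3 of them called higher, and the brightest other one was at 7.78 and 8.05 in Rec-1 against 2.30 and 2.59 in Mino.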
